A study of Mus musculus with 48 samples.

Results

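Glipr2 and Mtch2, with their paralogs Glipr1 and Mtch1, are 4 of the 55401 genes counted in colon RNA of 48 mice. The members were taken by gene symbol, and all 4 were found in the count table. Glipr2 and Mtch2 were chosen because their counts were higher in Bmal1IEC-/- than in control mice in these same data, so their genotype difference is given as a description with no test. Glipr1 and Mtch1 were not chosen by their counts, and their genotype difference was tested.

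The colons came from male mice aged 18-20 weeks that ate freely and had been kept in constant darkness, on its second day, when they were killed. Bmal1IEC-/- mice (Bmal1fl/fl x Villin CRE/wt) carry Cre driven by the Villin promoter, which is active in intestinal epithelial cells, so the other cells of the colon keep Bmal1, the clock activator whose gene symbol is Arntl. Control mice were littermates with the same floxed alleles and no Cre (Bmal1fl/fl x Villin wt/wt), on a C57BL/6J background. Both genotypes were sampled at 6 circadian times 4 h apart, with 4 mice per genotype and time: CT1, CT5 and CT9 in the circadian day, and CT13, CT17 and CT21 in the night. The fits used 46 mice. Bmal1IEC-/- replicates SV384 and SV385 at CT1 were left out. The study filtered low-quality samples and states 46 colon samples in its principal component analysis, but does not name the pair, and its summary of sample sizes gives 4 mice in every group. That these 2 are the pair was inferred from the scaling of its normalised control values, and every fit was repeated with all 48.

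GLIPR2, also called GAPR-1, belongs to the CAP superfamily and sits on the cytosolic face of the Golgi apparatus, where it can bind the autophagy protein Beclin 1. GLIPR1 is a CAP protein that enters the secretory pathway. MTCH2 and MTCH1 are distant relatives of the SLC25 carriers of the inner mitochondrial membrane, but lie in the outer membrane. MTCH2 is known as the receptor for the truncated apoptosis protein tBID and as an insertase that places tail-anchored proteins into that membrane, and MTCH1 shares the insertase fold. In the circadian clock BMAL1 with CLOCK or NPAS2 activates genes that include those of the repressors REV-ERBα (Nr1d1) and REV-ERBβ (Nr1d2), which in turn hold down genes that peak near the end of the night.

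All positions are in GRCm38 with GENCODE vM21 annotation, and reads were counted over the exons of each gene. Glipr2 (ENSMUSG00000028480) spans bases 43957401 to 43979118 of chromosome 4 on the plus strand with 2320 bp of exons. Glipr1 (ENSMUSG00000056888) spans 111985448 to 112002631 of chromosome 10 on the minus strand with 1543 bp of exons, of which 352 bp are shared with exons of Krr1 on the opposite strand. Mtch2 (ENSMUSG00000027282) spans 90847155 to 90866810 of chromosome 2 on the plus strand with 8490 bp of exons, and Mtch1 (ENSMUSG00000024012) spans 29332072 to 29347934 of chromosome 17 on the minus strand with 5615 bp. Reads that overlapped more than 1 feature were not counted, so the Glipr1 count may miss reads from the shared stretch, and whether strand was used in the counting is not given in the sources used here.

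Between 3144997 and 4785844 reads per mouse fell on genes. Values below are normalised read counts, the counts divided by the size factor of each mouse. Summed over its exons, Arntl was not called for a genotype difference common to all circadian times (log2 fold change 0.32, SE 0.19, edgeR adjusted p = 0.293). Its 24-h wave did differ (edgeR F test of a change of rhythm, described below, adjusted p = 8.85e-14), a call made for 0.919% of genes. The Arntl mean ran from 26.4 at CT9 to 259.96 at CT1 in control mice (n = 4 each). In Bmal1IEC-/- mice it ran from 114 at CT9 (n = 4) to 177 at CT1 (n = 2). This count covers exons outside the floxed stretch and cells outside the epithelium, so it does not measure the deletion. Of 19 core clock genes, 5 were higher and 8 lower in Bmal1IEC-/- mice, against 10.9% of all 14475 genes tested that were called in either direction. Among them were Nr1d2 at -1.74 (SE 0.08), Nr1d1 at -1.48 (SE 0.13), Ciart at -1.40 (SE 0.16) and Npas2 at 1.39 (SE 0.13) on the log2 scale.

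Glipr2 was higher in Bmal1IEC-/- mice at every circadian time. The mean was 102 ± 34.5 (SD, n = 24) in control mice, with a lowest value of 42.8, a median of 104 and a highest value of 180.7. In Bmal1IEC-/- mice it was 228 ± 36.3 (SD, n = 22), with a lowest value of 159.9, a median of 229.9 and a highest value of 294. The ranges of the genotypes met only where the highest control mouse, at CT21, passed the lowest Bmal1IEC-/- mice, at CT9 and CT13. In the edgeR model of genotype and circadian time the log2 fold change was 1.22 (SE 0.07), a fold change of 2.34.

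In control mice Glipr2 fell through the day and rose through the night. The 4 mice at CT1 had 151, 131, 128 and 131 normalised counts, and those at CT5 had 96.2, 106, 117 and 101. The mice at CT9 had 78.5, 73.2, 68.1 and 75.9, and those at CT13 had 70.0, 47.4, 42.8 and 62.0. Groups at CT9 and CT13 overlapped and had the lowest means. By CT17 the 4 mice had 111, 118, 75.9 and 93.8, and at CT21 they had 180.7, 148, 118 and 124. The means at CT21 (143 ± 28.5) and CT1 (135 ± 10.6) differed by less than the spread within CT21.

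In Bmal1IEC-/- mice the dip of Glipr2 at CT9 and CT13 was still visible, on a higher level. The mice at CT1 had 213 and 234, and the pair left out of the fits, SV384 and SV385, had 288 and 290.1. At CT5 the 4 mice had 258, 277, 234 and 294. At CT9 they had 159.9, 224, 184 and 224, and at CT13 they had 181, 179.6, 211 and 175. All 4 mice at CT5 lay above those at CT9 and at CT13. The mice at CT17 had 237, 226, 264 and 239, and those at CT21 had 249, 272, 267 and 222. The lowest Bmal1IEC-/- group mean, 187 at CT13, lay above the highest control group mean, 143 at CT21.

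Mtch2 had the same order of genotypes. The mean was 944 ± 183 (SD, n = 24) in control mice, from 639.7 through a median of 985 to 1253. It was 1453 ± 190 (SD, n = 22) in Bmal1IEC-/- mice, from 1116 through a median of 1413 to 1885. The lowest Bmal1IEC-/- mouse, at CT9, was below 4 control mice at CT1 and CT5, while mice of the same circadian time did not overlap. The log2 fold change was 0.67 (SE 0.04), a fold change of 1.59.

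The control mice had their highest Mtch2 counts at CT1, with 1081, 1253, 1169.8 and 1253. At CT5 they had 931, 959.6, 1119 and 1051, and at CT9 they had 699, 639.7, 722 and 798. At CT13 they had 732, 739.9, 762 and 768. The groups at CT9 and CT13 overlapped at the bottom of the cycle, and no control mouse at another time was as low. At CT17 the 4 mice had 855, 1011, 838 and 1011, and at CT21 they had 1082, 1026, 1100.1 and 1064.

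In Bmal1IEC-/- mice Mtch2 was highest at CT1, with 1748 and 1678, while SV384 and SV385 had 1829.6 and 1897. At CT5 the mice had 1435, 1716, 1885 and 1604, and at CT9 they had 1598, 1116, 1334 and 1467. The 4 mice at CT9 spread over a range that reached from the lowest value of the genotype into the values of CT5. At CT13 they had 1261, 1392, 1306 and 1319.7, at CT17 they had 1271, 1302, 1358 and 1472, and at CT21 they had 1471, 1557, 1386 and 1281. These 3 night groups overlapped one another. The lowest Bmal1IEC-/- group mean, 1319.6 at CT13, was above the highest control mean, 1189 at CT1.

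**Figure D1:**
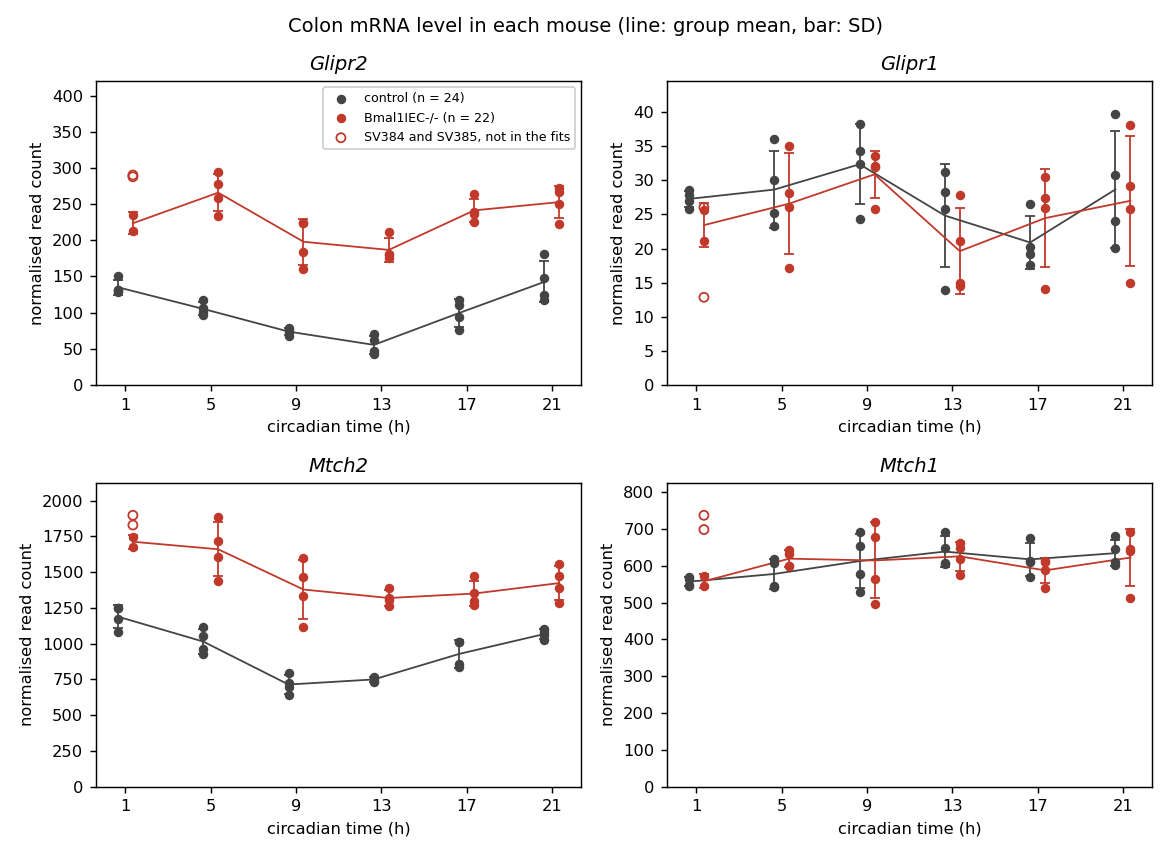
Normalised read count (y axis) of Glipr2, Glipr1, Mtch2 and Mtch1 in each mouse against circadian time in hours (x axis); filled points are the 46 mice of the fits, open points are replicates SV384 and SV385, lines join group means and bars are SD. Red points of Bmal1IEC-/- mice lie above the grey control points at all 6 times for Glipr2 and Mtch2 and among them for Mtch1; for Glipr1 they lie among them at 5 times, and below them at CT1 for the 2 mice of the fits.

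For both genes every Bmal1IEC-/- mouse was above every control mouse of its circadian time at 6 of 6 times, also with SV384 and SV385 included. Over all 48 mice 15 of the 14475 genes tested (0.104%) had this separation at 6 times. Because the members were picked on the genotype contrast, this count describes them and tests nothing. In bulk colon RNA more RNA per cell and more cells of a type cannot be told apart.

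In the 46 mice the ratio between genotypes of Glipr2 and Mtch2 was smallest at CT1 and CT21, the times of the highest control means. The control mean is also the denominator of this ratio. The ratio of the Bmal1IEC-/- to the control mean of Glipr2 was lowest at CT1, with 1.65, and at CT21, with 1.77, when control mice had most Glipr2. It was 2.53 at CT5, 2.68 at CT9, 3.36 at CT13 and 2.42 at CT17. The Mtch2 ratio was highest at CT9, with 1.93, and lowest at CT21, with 1.33. It was 1.44 at CT1, 1.64 at CT5, 1.76 at CT13 and 1.45 at CT17. The Mtch2 ratio did not follow the control mean throughout, since that mean was 1015 at CT5 and 929 at CT17. Each ratio rests on 4 control and 4 Bmal1IEC-/- mice, except at CT1, where it rests on 4 and 2.

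**Figure D2:**
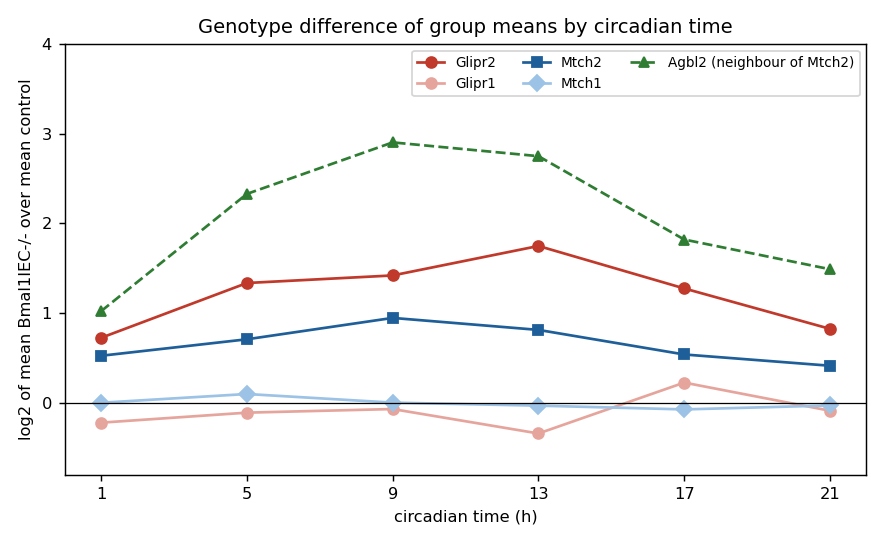
Log2 of the mean normalised count in Bmal1IEC-/- mice over that in control mice (y axis) at each circadian time in hours (x axis), for the 4 members and for Agbl2, the gene next to Mtch2. The Glipr2 ratio is largest at CT13 and the Mtch2 ratio at CT9, while the Mtch1 ratio lies between -0.07 and 0.10 and the Glipr1 ratio between -0.34 at CT13 and 0.23 at CT17.

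The genotype difference of Glipr2 and Mtch2 was not shared by their paralogs. Of all 14475 genes tested, 1585 (10.9%) passed an adjusted p of 0.05, with 770 (5.32%) higher and 815 (5.63%) lower in Bmal1IEC-/- mice. Neither Glipr1 nor Mtch1 was among them. Glipr1 had 27.1 ± 6.42 normalised counts in control (n = 24) and 25.5 ± 7.02 in Bmal1IEC-/- mice (n = 22), with ranges of 14.0 to 39.8 and 14.0 to 38.1. The log2 fold change was -0.10 (SE 0.11, edgeR quasi-likelihood F test, adjusted p = 0.64), and its 95% interval ran from a fold change of 0.807 to 1.09. With raw counts between 11 and 46 per mouse over all 48 mice the Glipr1 estimate is the least precise of the 4.

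Glipr1 ratios went from 0.79 at CT13 to 1.17 at CT17, and the mice of the genotypes overlapped at 5 of 6 times. At CT1 the Bmal1IEC-/- mice had 21.2 and 25.7, just under the lowest of the 4 control mice at 25.7. SV384 had 26.0 and SV385 had 12.9, so with all 48 mice the groups overlapped at CT1 too.

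Mtch1 had 606 ± 49.9 normalised counts in control (n = 24) and 609 ± 57.2 in Bmal1IEC-/- mice (n = 22). The ranges, 528 to 693 and 496 to 719.6, covered each other almost wholly. The log2 fold change was -0.0045 (SE 0.04, edgeR adjusted p = 0.963), with a 95% interval from a fold change of 0.946 to 1.05. SV384 and SV385 had 698 and 737, above the other Bmal1IEC-/- mice at CT1 (544 and 572), and with all 48 mice the log2 fold change was 0.02 (adjusted p = 0.765). In the 46 mice the ratio at each circadian time stayed between 0.95 and 1.07. With all 48 it was 1.15 at CT1. The groups overlapped at all 6 times in both cases.

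As reads per kilobase of exon scaled to a common depth, on which genes of different length can be compared, Mtch2 and Mtch1 stood at the same level in control mice and apart in Bmal1IEC-/- mice. The control levels were 28.9 ± 5.64 for Mtch2 and 28.0 ± 2.28 for Mtch1, and the ratio of Mtch2 to Mtch1 within a mouse had a mean of 1.04 (range 0.707 to 1.51). In Bmal1IEC-/- mice the levels were 44.4 ± 5.82 and 28.1 ± 2.67, and the ratio had a mean of 1.60 (range 1.09 to 2.13). Every Bmal1IEC-/- mouse had more Mtch2 than any of these mice had Mtch1, with 34.1 as the lowest Mtch2 level and 33.4 as the highest Mtch1 level.

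On the same scale Glipr2 was above Glipr1 in both genotypes. Control mice had 11.4 ± 3.89 for Glipr2 and 4.56 ± 1.09 for Glipr1, with a mean ratio of 2.60 (range 0.909 to 3.90). Bmal1IEC-/- mice had 25.5 ± 4.04 and 4.29 ± 1.18, with a mean ratio of 6.43 (range 3.82 to 11.8). Exon length here is the union over all transcripts, so these levels take no account of which transcripts the colon makes.

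Rhythms over the 6 circadian times were not used to choose the members, and were tested in each genotype with JTK_cycle, a rank test against 24-h waves of 12 phases. In control mice 7810 of 32471 genes with a count (24.1%) were called rhythmic. Glipr2 (adjusted p = 2.40e-08) and Mtch2 (adjusted p = 4.07e-07) were among them, and both had a JTK_cycle peak at CT0, as did Arntl. Glipr1 (adjusted p = 0.391) and Mtch1 (adjusted p = 0.123) were not called.

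In Bmal1IEC-/- mice 4597 genes (14.2%) were called rhythmic. Glipr2 (adjusted p = 0.0213, peak at CT0) and Mtch2 (adjusted p = 0.00447, peak at CT2) were again called, and both paralogs had an adjusted p of 1. The Glipr2 call rested on few mice: it was lost when any of SV410, SV395, SV448 or SV450, mice at CT9 and CT13, was left out, with adjusted p up to 0.056. With both replicates of CT1 that had been left out, the calls of Glipr2 and Mtch2 stayed past the threshold.

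Relative to its 24-h mean, each rhythm was flatter in Bmal1IEC-/- mice. A cosine fitted to normalised counts had an amplitude of 42.1% of the mean for Glipr2 in control mice and 14.4% in Bmal1IEC-/- mice. For Mtch2 these were 24.6% and 13.3%. The fit left little scatter in control mice, where it took up 80.7% of the variance of Glipr2 and 84.4% of that of Mtch2, against 40.0% and 51.1% in Bmal1IEC-/- mice. From the lowest to the highest group mean Glipr2 went up 2.57-fold in control and 1.42-fold in Bmal1IEC-/- mice. Control Mtch2 went up 1.66-fold.

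The edgeR test of a change of rhythm, an F test on 2 degrees of freedom of the interaction of genotype with the 24-h wave, called 132 of 14360 genes (0.919%). Glipr2 (adjusted p = 0.0178) and Mtch2 (adjusted p = 0.0121) were called, with a smaller log2 amplitude in Bmal1IEC-/- mice in both cases. The log2 amplitude of Glipr2 was 0.63 in control and 0.22 in Bmal1IEC-/- mice, and that of Mtch2 0.36 and 0.19. Glipr1 (adjusted p = 0.984) and Mtch1 (adjusted p = 0.821) were not called. No alternative run, leaving out any of the 46 mice included, took Glipr2 or Mtch2 above 0.05.

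This test is on a log scale, where the same wave in counts looks smaller on a higher mean. In normalised counts the amplitude of Glipr2 was 43.0 ± 4.59 (SE) in control and 33.3 ± 9.38 in Bmal1IEC-/- mice. The difference, -9.63 ± 10.4, had a 95% interval from -30.7 to 11.5. For Mtch2 the amplitudes were 233 ± 21.8 and 195 ± 43.9, and the difference, -37.7 ± 49.0, had an interval from -137 to 61.4. Amplitudes in counts thus differed by less than the error of the difference, with intervals wide enough to hold either a large loss or a gain.

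Peak times of the cosine fits moved for Mtch2 and not measurably for Glipr2. Glipr2 peaked at 23.3 ± 0.41 h (SE) in control and at 24.0 ± 0.99 h in Bmal1IEC-/- mice, a shift of 0.658 h with a 95% interval from -1.50 to 2.81 h. Mtch2 peaked at 23.7 ± 0.36 h and at 2.54 ± 0.80 h, 2.82 h later, with an interval from 1.05 to 4.60 h. The Bmal1IEC-/- peak of both genes leans on the CT1 group, which held 2 mice in the fits. With all 48 mice the Bmal1IEC-/- peaks were at 0.10 h for Glipr2 and 2.30 h for Mtch2.

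**Figure D3:**
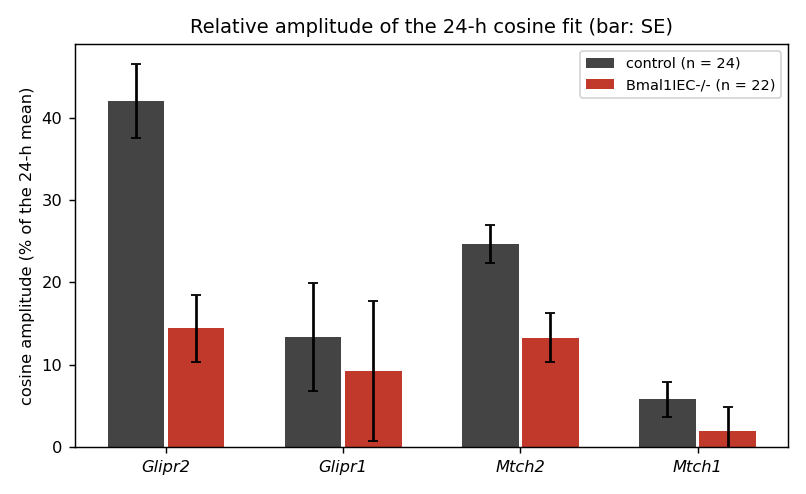
Amplitude of the 24-h cosine fit as a percentage of the 24-h mean (y axis, bars start at 0; error bars are the SE of the amplitude over that mean) for each member (x axis) in control (n = 24) and Bmal1IEC-/- mice (n = 22). The bar of Glipr2 goes from 42.1% to 14.4% and that of Mtch2 from 24.6% to 13.3%.

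The genotype effect did not differ measurably between day and night. In the model with genotype, period and their interaction, 8 of 14000 genes (0.0571%) had an interaction past the threshold, and none of the members was among them (adjusted p = 0.979 for Glipr2, 0.995 for Glipr1, 0.864 for Mtch2 and 0.743 for Mtch1). Their unadjusted p ran from 0.195 for Mtch1 to 0.96 for Glipr1, and DESeq2 called none of the 3 members to which it gave an adjusted p, all but Glipr1. The log2 fold change of Glipr2 was 1.14 (SE 0.16) by day and 1.18 (SE 0.16) by night, and that of Mtch2 was 0.68 (SE 0.10) and 0.57 (SE 0.09). Each period joins times of high and of low ratio, for example CT1 with CT9 and CT13 with CT21.

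Of the genes around Mtch2, its nearest upstream neighbour Agbl2 carried a larger genotype difference than Mtch2 itself. Agbl2 (ENSMUSG00000040812, chromosome 2, 90782727 to 90834437, plus strand) encodes a carboxypeptidase that removes glutamates from tubulin tails. It ends 12717 bp before the start of Mtch2 on the same strand, with no other annotated gene lying between them. It had 21.2 ± 15.2 normalised counts in control (n = 24, range 2.17 to 51.9) and 72.8 ± 35.1 in Bmal1IEC-/- mice (n = 22, range 27.3 to 149). The log2 fold change was 1.97 (SE 0.15, edgeR adjusted p = 2.11e-14).

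Agbl2 also followed the time course of Mtch2. Its control means were 47.1 at CT1, 22.8 at CT5, 10.2 at CT9, 5.26 at CT13, 12.4 at CT17 and 29.4 at CT21. The Bmal1IEC-/- means were 95.8, 115, 76.1, 35.4, 43.8 and 82.6 at the same times. Like Mtch2 it had no overlap between genotypes at 6 of 6 times, and a JTK_cycle peak at CT0 in control (adjusted p = 4.65e-09) and at CT2 in Bmal1IEC-/- mice (adjusted p = 2.52e-05). Its change of rhythm was called as well (adjusted p = 0.00771, log2 amplitude 1.42 in control and 0.85 in Bmal1IEC-/- mice). These counts are low, so a single mouse's Agbl2 value carries a large counting error.

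Within 200 kb of the Mtch2 start 7 genes were tested and 3 were called, all higher in Bmal1IEC-/- mice. Of all 14475 genes tested 5.32% were called higher. Beside Agbl2 these were Ndufs3, a subunit of respiratory complex I (log2 fold change 0.19, SE 0.04, edgeR adjusted p = 1.58e-04), and Fnbp4, which encodes a formin-binding protein (0.16, SE 0.04, adjusted p = 0.00452). With all 48 mice the Fnbp4 value was 0.09 (adjusted p = 0.323). Neither Ndufs3 (adjusted p = 0.892) nor Fnbp4 (adjusted p = 0.949) was called for a change of rhythm. Around Glipr2 none of 5 tested neighbours was called, with log2 fold changes from -0.13 to 0.25, and none was called around Mtch1 (5 tested) or Glipr1 (1 tested, Krr1 at 0.04). For these 3 members edgeR had 0 neighbours at an unadjusted p under 0.05, and DESeq2 called 0. With 10.9% of all genes called in either direction, 0 calls among so few neighbours is near that share.

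**Figure D4:**
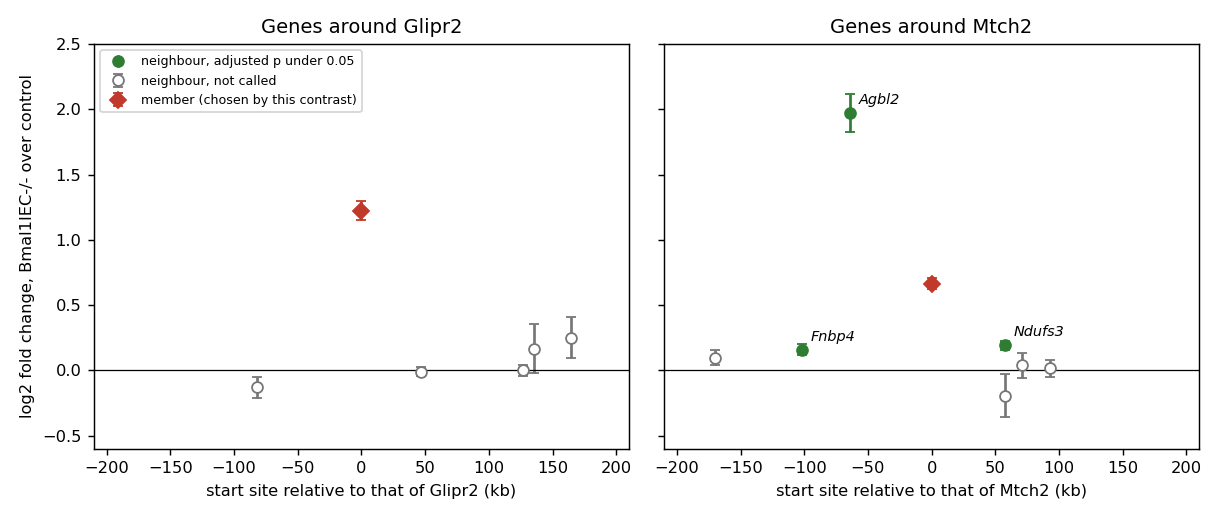
Log2 fold change between genotypes (y axis, bars are SE) of the genes tested within 200 kb of the start of Glipr2 (left) and of Mtch2 (right), by the distance of their start sites in kb (x axis). Agbl2 stands at 1.97 upstream of Mtch2, while the neighbours of Glipr2 lie between -0.13 and 0.25.

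The promoter of Mtch2 is shown because Mtch2 and Agbl2 moved together. RefSeq promoter windows were searched on both strands for letters that clock factors are known to read, and 32851 windows of 250 bases before a start site gave the background. The letters were CACGTG (the E-box, in 6.02% of windows), TAGGTCA and TGGGTCA (cores of the element read by REV-ERB and ROR proteins, in 2.23% and 3.24%) and TTANGTAA (the D-box, in 2.06%). None of them occurred in the window of Mtch2, of Glipr2 or of Mtch1. The shorter hexamer AGGTCA, searched after these gave no match and contained in the first core, occurred in 14.0% of windows. It was found, on the minus strand, 197 bases before the start of Mtch2 and 48 bases before one of the Agbl2 starts. It was not found in the Glipr2 and Mtch1 windows. The Glipr2 window (bases 43957452 to 43957701) lies inside the gene as placed above, so bases before that annotated start were not searched. A Mtch1 window (29347328 to 29347577) also lies inside its gene, as does the Agbl2 window with the hexamer (90782988 to 90783237). The Agbl2 window just before the annotated start of the gene (90782477 to 90782726) held no match. Glipr1 had no window. The stretch before Mtch2 (GRCm38, plus strand, chr2:90846905-90847154) reads as follows, with the hexamer in capitals.

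Mtch2: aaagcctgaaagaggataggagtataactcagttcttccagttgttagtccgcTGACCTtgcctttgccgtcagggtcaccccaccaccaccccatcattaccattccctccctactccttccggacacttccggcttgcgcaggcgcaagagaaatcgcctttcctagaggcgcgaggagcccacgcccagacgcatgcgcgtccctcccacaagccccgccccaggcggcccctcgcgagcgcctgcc

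This is a match of letters in a short window, and no binding was measured.

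The genes most like each member were ranked by Pearson's r of log2 CPM (depth-scaled counts) over the 46 mice, as a description across mice that share genotype and circadian time. The 5 most like Glipr2 were the tight junction gene Cldn8 (r = 0.930), Mtch2 itself (0.897), Dab1 (0.891), Agbl2 (0.882) and the clock gene Npas2 (0.882). Those most like Mtch2 were Cldn8 (0.942), the efflux transporter gene Abcg2 (0.928), Agbl2 (0.925), Dab1 (0.907) and Glipr2 (0.897). Cldn8, Dab1 and Agbl2 were thus on both lists, and Glipr2 and Mtch2 were on each other's. This r includes the genotype difference by which Glipr2 and Mtch2 were both chosen. Their likeness to each other here was therefore partly set by that choice.

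Once the mean of each genotype was taken out, the order changed. The genes most like Glipr2 were then the prion protein gene Prnp (r = 0.826), Arntl (0.807), 4930539E08Rik (0.798), Cldn8 (0.773) and Plekhg1 (0.765). Those most like Mtch2 were Arl4a (0.857), Abcg2 (0.857), Zfand5 (0.842), Arntl (0.837) and Cyp2c55 (0.832). Arntl was on both lists. The r between Glipr2 and Mtch2 went from 0.897 to 0.692, which made Mtch2 rank 35 for Glipr2.

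When the mean of each genotype and circadian time was removed, which leaves only the scatter among mice of a group, Glipr2 and Mtch2 no longer ran together (r = -0.07). Mtch2 and Agbl2 did (r = 0.513), while Glipr2 and Agbl2 did not (r = -0.06). An r of about this size was not particular to Agbl2. In the same scatter that of Mtch2 was -0.49 with Nr1d1, 0.387 with Arntl and -0.12 with Nr1d2. The r of Mtch2 with Mtch1 was -0.42 in this scatter, and that of Glipr2 with Glipr1 was 0.338.

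The paralogs ran with other genes. Over the 46 mice Glipr1 was most like Klrk1, which encodes a receptor of natural killer and T cells (r = 0.605), Gm44985 (0.579) and Pla2g2d (0.576). Mtch1 was most like the dynactin gene Dctn1 (r = 0.767), the tetraspanin gene Cd82 (0.753) and the ribosomal protein gene Rpl18 (0.747). With the genotype mean removed, Klrk1 (0.595), Pla2g2d (0.577) and Rabggta (0.573) led for Glipr1, and Gpi1 (0.784), Aldh2 (0.775) and Dctn1 (0.769) for Mtch1. The r between paralogs was -0.0042 for Glipr2 and Glipr1 and -0.22 for Mtch2 and Mtch1.

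Relatives of the members and genes of the pathways in which they are known to act are described next without the members, since Glipr2 and Mtch2 were chosen for a large genotype difference. The median log2 fold change of all genes tested was 0.0049, and the shares called, 5.32% higher and 5.63% lower, are the background for each list. At an unadjusted p under 0.05 in edgeR, 1661 of the 14475 genes tested were higher and 1820 lower, the background for counts at that limit. Of 15 CAP superfamily genes 5 could be tested. Besides Glipr2 and Glipr1 these were Crispld2 (log2 fold change -0.08, SE 0.08), Pi15 (-0.28, SE 0.17) and Pi16 (-0.19, SE 0.22), of which 0 were called by edgeR or DESeq2 and 0 had an unadjusted p under 0.05 in edgeR. The other 10 CAP genes had too few reads.

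Of 30 genes of the Beclin 1 complexes and of autophagosome formation, the setting in which GLIPR2 has been studied, all could be tested, and 0 were higher and 1 lower in Bmal1IEC-/- mice (median -0.02). The gene that fell was Gabarapl1, which encodes a membrane-bound autophagosome protein (log2 fold change -0.16, SE 0.05, adjusted p = 0.0286). The Gabarapl1 call was lost without Bmal1IEC-/- replicate SV480 at CT1 (adjusted p = 0.0572). DESeq2 also called 0 higher and 1 lower. At an unadjusted p under 0.05 edgeR had 3 higher and 4 lower, near the shares over all genes tested.

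Of 22 tested genes of the BID pathway of apoptosis, in which MTCH2 receives tBID, 2 were higher and 2 lower (median -0.01). Bak1, which encodes a pore-forming death effector (log2 fold change 0.15, SE 0.05), and Htra2, which encodes a protease released from mitochondria (0.24, SE 0.06), rose. Bcl2 (-0.31, SE 0.05) and Mcl1 (-0.11, SE 0.04), which encode inhibitors of cell death, fell. Their edgeR adjusted p-values ran from 3.30e-05 for Bcl2 to 0.0393 for Mcl1, and the Mcl1 call was lost when any of 11 of the 46 mice was left out. The Bak1 call was lost without control replicate SV396 or SV398 or Bmal1IEC-/- replicate SV479 or SV480, with adjusted p up to 0.0713. DESeq2 called 2 genes of this list higher and 2 lower. At an unadjusted p under 0.05 edgeR had 3 higher and 4 lower, near the shares over all genes tested.

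Of 15 tested genes of import and insertion at the outer mitochondrial membrane other than Mtch2 and Mtch1, 2 were higher and 0 lower (median 0.06). They were Samm50, the core of the sorting and assembly machinery (log2 fold change 0.16, SE 0.04, adjusted p = 0.00184), and the porin gene Vdac3 (0.10, SE 0.03, adjusted p = 0.0444). The Vdac3 call was lost when any of 25 mice was left out. With all 48 mice 5 of these genes were higher. At an unadjusted p under 0.05 in edgeR 7 were higher and 1 lower, and DESeq2 called 2 and 0.

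Of 13 tested genes of mitochondrial fusion and fission, 2 were higher and 0 lower (median 0.06). They were Opa1, the fusion protein of the inner membrane (log2 fold change 0.11, SE 0.03), and Mul1, a ubiquitin ligase of the outer membrane (0.14, SE 0.04). DESeq2 made 2 calls higher and 0 lower here, and 5 genes were higher and 0 lower at an unadjusted p under 0.05 in edgeR. Of 40 tested SLC25 carriers, 4 were higher and 1 lower (median -0.01). DESeq2 called 4 carriers higher and 2 lower, and at an unadjusted p under 0.05 edgeR had 8 higher and 6 lower. Slc25a24 (0.24, SE 0.05), Slc25a20 (0.23, SE 0.05), Slc25a13 (0.18, SE 0.04) and Slc25a35 (0.16, SE 0.04) rose, and Slc25a45 (-0.31, SE 0.10) fell, a call that was lost when any of 18 mice was left out. Outside Glipr2 and Mtch2, no gene of these 6 lists passed both the adjusted p and a fold change of 1.5. None had a called change of rhythm. Over all genes, 96 higher and 99 lower of 14475 passed both limits, and 132 of 14360 (0.919%) had a called change of rhythm. At these shares few calls or none would be found in lists of this size.

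**Figure D5:**
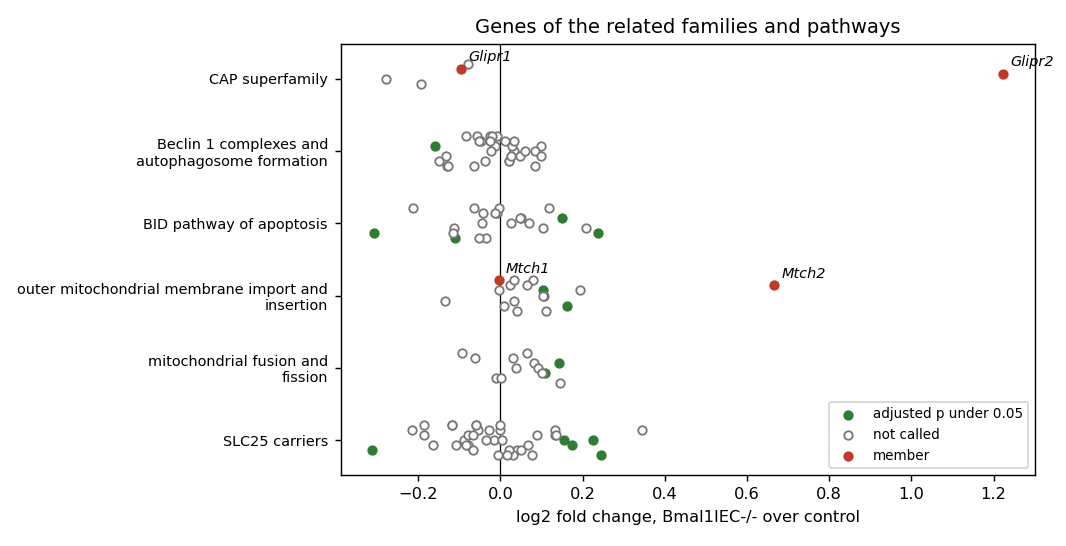
Log2 fold change between genotypes (x axis) of each tested gene of 6 families and pathways (rows); green points have an edgeR adjusted p under 0.05, open points do not, and members are red. Glipr2 is at 1.22 and Mtch2 at 0.67 on this axis, the contrast by which they were chosen, and the other genes called lie between -0.31 and 0.24.

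Some markers of the tissue's cell types also moved with genotype. Of all 14475 genes tested 5.32% were called higher and 5.63% lower, the background for the counts of called markers. The 8 epithelial markers were all present, 4 higher and 1 lower in Bmal1IEC-/- mice, with a median log2 fold change of 0.14. Their summed level ran from 5403 to 8070 CPM (counts scaled to a common library size) in control and from 6262 to 8559 in Bmal1IEC-/- mice. Goblet cell markers moved in opposite directions, 3 of 7 higher and 2 lower. With all 48 mice 4 epithelial markers were higher and 0 lower, and 3 goblet cell markers were higher and 1 lower. Zg16, which encodes a lectin-like protein of the mucus, went from 4087 ± 836 normalised counts in control to 6755 ± 1261 in Bmal1IEC-/- mice, a log2 fold change of 0.71 (SE 0.08, edgeR adjusted p = 1.69e-08) that is as large as that of Mtch2. Clca1, which encodes a secreted protein of goblet cells, went from 6265 ± 1002 to 4113 ± 1376, a log2 fold change of -0.62 (SE 0.11, adjusted p = 6.61e-05). The sums of the 7 markers, in which these shifts offset each other, ran from 17395 to 28656 CPM in control and from 17231 to 29012 in Bmal1IEC-/- mice.

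Markers of the wall and stroma were lower or not called, and some of these calls depended on the mice and the tool. Of 7 smooth muscle markers 3 were lower in edgeR (median -0.18), and all 7 at an unadjusted p under 0.05. Over all 14475 genes tested, 1820 were lower and 1661 higher at that unadjusted limit. Their sums ran from 4149.7 to 6365 CPM in control and from 3678 to 5885 in Bmal1IEC-/- mice. Of 7 fibroblast markers 2 were lower (median -0.13), of 6 endothelial markers 2 (median -0.15), and of 8 markers of enteric neurons and glia 1 (median -0.18). No macrophage, T-cell, B-cell or pancreas marker was called by edgeR or DESeq2, of 7, 4, 3 and 1 tested, and at an unadjusted p under 0.05 edgeR had 1 macrophage and 1 T-cell marker lower and 1 B-cell marker higher. With all 48 mice 1 smooth muscle, 1 fibroblast, 2 endothelial and 2 neuron and glia markers were lower. DESeq2 called 4, 2, 2 and 0 of them lower in the 46 mice. T-cell markers summed to 12.7 to 26.5 CPM in control and 11.6 to 23.3 in Bmal1IEC-/- mice. The part of these shifts in the levels of Glipr2, Mtch2 and Glipr1 was not tested.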

How the data were processed

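The authors sequenced colon mRNA as paired reads (TruSeq Stranded mRNA library, NovaSeq), trimmed them with Trimmomatic 0.39 after FastQC 0.11.5, aligned them to mm10 with STAR 2.7.5c, and counted reads per gene with featureCounts 1.4.6, with 4 as the lowest mapping quality kept. SAMtools 1.3.1 and DESeq2 1.22.0 were also used. The deposited values are the authors' raw read counts, whole numbers with no normalization. The annotation release is not given in the sources used here, and 55141 of 55401 identifiers were found in GENCODE vM21.

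The members and gene lists were chosen with earlier results of these data known. Counts of 46 mice were fitted in R 4.3.3 with edgeR 4.0.16 (filterByExpr, TMM, quasi-likelihood F test, Benjamini-Hochberg adjustment over all genes tested), with genotype and circadian time, genotype and period, or genotype and a 24-h cosine. Normalised counts are counts over DESeq2 1.42.0 size factors. JTK_cycle (own implementation, 24 h period, 12 phases 2 h apart, exact null) ran on normalised counts of 32471 genes. The edgeR fits of genotype with circadian time and with the 24-h cosine, and JTK_cycle, were tested on simulated data. The other steps were not.

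Named genes are the members, up to 4 called genes per pathway list with the smallest adjusted p, the 5 (Glipr2, Mtch2) or 3 (paralogs) genes most like each member, called neighbours within 200 kb, and Arntl. Slc25a45 was added after its value was seen, as the remaining called gene of its list, as were the CAP genes tested and the markers Zg16 and Clca1. The comparison of amplitudes and peak times in counts, the correlations without group means and the hexamer search were also chosen after seeing the data. Each mouse is 1 replicate. Depth was 3144997 to 4785844 counts per mouse. Alternatives were all 48 mice, other normalizations, filters and tests, and leaving out each mouse. The labels give no sequencing batch. Protein sequences were not used here. Rhythm and summary steps ran in Python 3.11.15 with scipy 1.17.1, and plots came from matplotlib 3.10.9.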

Additional observations from a re-analysis of the deposited data

Results flagged for a closer look

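Glipr2 and Mtch2 differed between genotypes in their rhythm, by edgeR's F test of the interaction with the 24-h wave (adjusted p = 0.01776 and 0.01212). The log2 amplitude of Glipr2 went from 0.63 to 0.22 and that of Mtch2 from 0.36 to 0.19, while the amplitudes in normalised counts differed by less than their error, as given above.

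Of 48 groups of 4 mice, 12 for each member, 2 held a Glipr2 value far from the other 3 by Dixon's gap ratio. Control replicate SV454 at CT1 had 151.0 normalised counts against 128 to 131 in the others, and Bmal1IEC-/- replicate SV449 at CT13 had 211.2 against 175 to 181. Chance flags about 1 group in 20.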

How the results depend on the processing

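The log2 fold changes of Glipr2 (1.196 to 1.262) and Mtch2 (0.6437 to 0.6769) and the calls of their change of rhythm held when each of the 46 mice was left out. The near-zero Mtch1 difference changed sign with all 48 mice (0.02344), with no filter (0.0004099), in the circadian day alone (0.04582) and with no time term (0.001451), and ran from -0.01815 to 0.007009 with a mouse left out. The interaction with period of Glipr2 was -0.01023 with all 48 mice and ran from -0.02989 to 0.1559 with a mouse left out, and that of Glipr1 from -0.06924 to 0.09534. None of these values was called. The Bmal1IEC-/- rhythm of Glipr2 had adjusted p from 0.003436 to 0.05602.

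The genotype test called 469 genes in the day alone, 977 in the night alone and 791 with no time term. The interaction with period was called for 17 genes with all 48 mice, for 18 in DESeq2, and for 7 to 14 with a mouse left out. A change of rhythm was called for 289 genes with all 48 mice and 202 in DESeq2. With a fold change over 1.5 required, 96 higher and 99 lower of all 14475 genes tested remained called. Of these, 0 were in the Beclin 1, BID, fusion and fission and SLC25 lists, and 1 (Mtch2) in the list of outer membrane import. By adjusted p alone, Mtch2 included, that list had 3 calls in the 46 mice and 6 in all 48. The 21 called genes named from the pathway lists or as neighbours, members aside, were also followed. Of these, 21 kept the call with DESeq2, 19 with all 48 mice and 17 with no filter. With no time term 13 kept it, in the night alone 11 and in the day alone 6, with no change of direction. Genes named only as markers or by likeness were not among the 21. Fits to the day or night alone hold fewer mice, and the other causes were not tested. No paired analysis was possible because replicate numbers are not shared between groups. Genes under about 3 counts per mouse, the limit that a count of 0 allows, cannot be compared at this depth.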
